A study of Mus musculus with 14 samples.

Results

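Kupffer cells and other macrophages of the liver were followed here through 33 marker genes in bulk ATAC-seq of mouse liver. ATAC-seq measures open chromatin by the DNA that a transposase can cut and tag. Reads had been counted in intervals of one fixed width, in 1 table for chow-fed mice and 1 for mice on a high-fat diet. An interval was given to a gene when its midpoint lay inside the gene, and otherwise to the nearest protein-coding gene within 50 kb. By this rule 84 of 88203 intervals of the chow table belonged to 25 of the 33 genes, and 122 of 105801 intervals of the high-fat table to 29. Timd4, Itgax, Ccr2 and Folr2 had no interval in either table, and Vsig4, Lyz2, C1qa and Cybb had intervals in the high-fat table only.

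Kupffer cells are the resident macrophages of the liver sinusoids, where they clear bacteria, complement-coated particles and old red cells from portal blood. Their development depends on signalling through the CSF1 receptor and on the lineage factor PU.1, the product of Spi1. When resident cells are lost, as happens in fatty liver disease, monocytes enter and take on macrophage programmes, among them a lipid-associated one marked by Trem2 and Gpnmb. Macrophages are a minority of the nuclei in whole liver, and bulk counts do not show which nuclei gave the signal at such genes. A difference in bulk can therefore follow from the number of macrophage nuclei, from their state or from other cells, hepatocytes included. These cannot be told apart here.

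All 14 animals were female and carried floxed matrin-3 (Matr3, encoding a nuclear matrix protein). The knockouts, called LKO, also carried Albumin-Cre, which is active in hepatocytes, so macrophages are not cells in which this Cre is known to act. The floxed littermates, called flox, served as controls. There were 3 flox and 3 LKO livers on chow and 4 flox and 4 LKO livers on a diet with 60 kcal% fat, each diet given for 16 weeks from 7 weeks of age. Nuclei came from 50 mg of frozen liver. The high-fat animals had been fasted for 12 h. For the chow animals no feeding state is given in the sources used here.

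Libraries held 15.5 to 35 M reads in intervals on chow and 7.59 to 10.4 M on the high-fat diet. On chow, the shallow libraries numbered 2 of both genotypes stood apart along principal component 1, which held 42.2% of the variance. In the high-fat table, where component 1 (25.7%) mostly followed genotype, flox 3 lay among the LKO libraries, and LKO 1 lay nearest to the flox side. Matr3 itself had 7 intervals in each table, and the log2 fold change of their summed reads (LKO over flox) was -0.07 (SE 0.08) in the chow table and -0.13 (SE 0.09) in the high-fat table. Which exons are floxed is not stated in the labels, and these values therefore check no label. Hepatocyte marker genes had the highest sum of any list in every library, 3182 to 6392 CPM over 10 genes. CPM are reads scaled to a fixed library size of 1 M. This list also held the most intervals, 342 in the chow table and 374 in the high-fat table, against 84 and 122 for the macrophage genes. The sums therefore do not rank the lists by accessibility per interval. The 33 macrophage genes summed to 652 to 779 CPM in the chow table and 832 to 946 CPM in the high-fat table, which are different sets of intervals and are not compared.

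At the start sites, RefSeq sequences (GRCm38.p6) were at hand for 26 of the 33 genes, as 28 windows of the 250 bases before a start. Of these windows, 10 were covered by a deposited interval: those of C1qb, Cd68, Fcer1g, Irf8, Laptm5 and Mertk in both tables, and those of C1qc, Cd5l, Clec4f and Lyz2 in the high-fat table only. GAGGAA, the core letters of the PU.1 motif, occurred on either strand in 5 of the 10. Those 5 windows are shown because they join an open start site with the letters of the lineage factor, and that of Clec4f is shown as the start of the most Kupffer-restricted gene, which lacks them. Capitals mark GAGGAA or, on the other strand, TTCCTC. In C1qc they extend to the longer GAGGAAGT, which contains the core. The windows are C1qb chr4:136886201-136886450 (minus strand), C1qc chr4:136892915-136893164 (minus), Cd5l chr3:87357631-87357880 (plus), Cd68 chr11:69666171-69666420 (minus), Laptm5 chr4:130913066-130913315 (plus) and Clec4f chr6:83656117-83656366 (minus).
C1qb: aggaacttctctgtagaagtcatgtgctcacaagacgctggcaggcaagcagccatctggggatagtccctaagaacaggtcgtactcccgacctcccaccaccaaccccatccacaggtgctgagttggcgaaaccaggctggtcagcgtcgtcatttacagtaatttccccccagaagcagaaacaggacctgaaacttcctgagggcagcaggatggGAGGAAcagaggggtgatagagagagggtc
C1qc: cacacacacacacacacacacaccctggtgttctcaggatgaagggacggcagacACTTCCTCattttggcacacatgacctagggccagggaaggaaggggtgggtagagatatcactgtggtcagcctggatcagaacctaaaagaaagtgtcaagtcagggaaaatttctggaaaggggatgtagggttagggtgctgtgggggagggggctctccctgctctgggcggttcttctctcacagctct
Cd5l: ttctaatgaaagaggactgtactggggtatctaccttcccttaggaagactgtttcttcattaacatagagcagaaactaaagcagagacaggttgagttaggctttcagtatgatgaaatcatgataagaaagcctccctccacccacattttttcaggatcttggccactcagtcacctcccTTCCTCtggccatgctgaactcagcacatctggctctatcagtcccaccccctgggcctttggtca
Cd68: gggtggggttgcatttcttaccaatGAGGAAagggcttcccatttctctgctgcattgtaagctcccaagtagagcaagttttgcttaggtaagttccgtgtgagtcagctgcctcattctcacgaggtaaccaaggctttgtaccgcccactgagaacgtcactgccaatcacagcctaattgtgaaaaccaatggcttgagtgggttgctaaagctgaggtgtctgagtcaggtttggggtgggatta
Laptm5: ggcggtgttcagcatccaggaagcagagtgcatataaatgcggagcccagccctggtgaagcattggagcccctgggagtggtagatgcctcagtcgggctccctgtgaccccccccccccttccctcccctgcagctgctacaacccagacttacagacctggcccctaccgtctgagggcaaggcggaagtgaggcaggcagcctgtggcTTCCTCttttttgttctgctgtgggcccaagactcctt
Clec4f: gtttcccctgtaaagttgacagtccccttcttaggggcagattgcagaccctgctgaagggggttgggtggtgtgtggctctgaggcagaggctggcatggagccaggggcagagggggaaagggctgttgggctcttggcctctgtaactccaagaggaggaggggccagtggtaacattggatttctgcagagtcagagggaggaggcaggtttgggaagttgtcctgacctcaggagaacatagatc

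The matches began 30 bases before the start in C1qb, 193 in C1qc, 66 in Cd5l, 225 in Cd68 and 38 in Laptm5. Across all 28 member windows GAGGAA was found in 12 (42.9%), against 23.4% of 32536 RefSeq windows of the same length. The MAF half-site TGCTGA was found in 10 (35.7%, against 16.1%), the AP-1 motif TGANTCA in 5 (17.9%, against 6.73%) and the IRF motif (GAAA repeated after 2 bases of any kind) in 3 (10.7%, against 2.98%). The longer PU.1 form GAGGAAGT was found in 1 (3.57%, against 2.45%) and the C/EBP motif TTGCNNAA in 1 (3.57%, against 9.57%). Motifs were searched on both strands. These matches describe letters and are not binding sites. Median GC content was 49.4% in the member windows and 52.4% in all.

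The median member interval held 6.94 CPM in the chow table and 6.1 CPM in the high-fat table, against 7.97 and 6.74 CPM for all intervals. Of the member intervals, 40 of 84 on chow and 54 of 122 on the high-fat diet lay inside the gene. The strongest sat at the start of Mertk, the receptor with which macrophages take up dying cells, with 33.6 CPM on chow (chr2:128698601-128699101) and 33 CPM on the high-fat diet (chr2:128698606-128699106). Spi1 had its strongest interval near the other end of the gene (chr2:91114999-91115499), with 25.2 CPM on the high-fat diet. Mertk, with 13 and 15 intervals, and Ly86, with 14 and 15, together held 27 of the 84 and 30 of the 122. Only 1 and 2 of the Ly86 intervals lay within 10 kb of that gene, so its sums mostly describe the region beyond it. Neighbouring genes lay close to Csf1r (Hmgxb3, 138 bp away), Tyrobp (Hcst, 130 bp) and Cd68 (Eif4a1, 766 bp), and their intervals may serve either gene.

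With high-fat feeding, most macrophage genes had a higher mean in LKO than in flox livers, and none passed the test. The summed reads of a gene were higher in LKO for 22 of the 29 genes with intervals, and the median log2 fold change was 0.14, against 0.00 over all 16280 genes (0.0044). The median of the 122 intervals was 0.13, against 0.00 over all intervals (-0.0039), and 79 of the 122 were above 0. In the edgeR quasi-likelihood test, adjusted over all genes at 0.05, 0 of the 29 genes passed, where 0.436% of all genes did (0.233% with LKO higher, 0.203% lower). Over intervals, 0 of 122 passed, where 0.751% of all did (0.448% higher, 0.303% lower). At an unadjusted p under 0.05 there were 3 genes higher in LKO (Cd163, Cd5l and C1qa) and 0 lower, against 5.16% and 4.67% of all genes in those directions (9.83% in both). Every interval of these 3 genes had been called by the authors in LKO livers. Intervals from such calls had a median log2 fold change of 0.13 over the whole table, and the shares of all genes do not carry this selection. Among intervals, 8 were higher and 2 lower at that level, against 5.41% and 4.8% of all (10.2% in both).

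**Figure D1:**
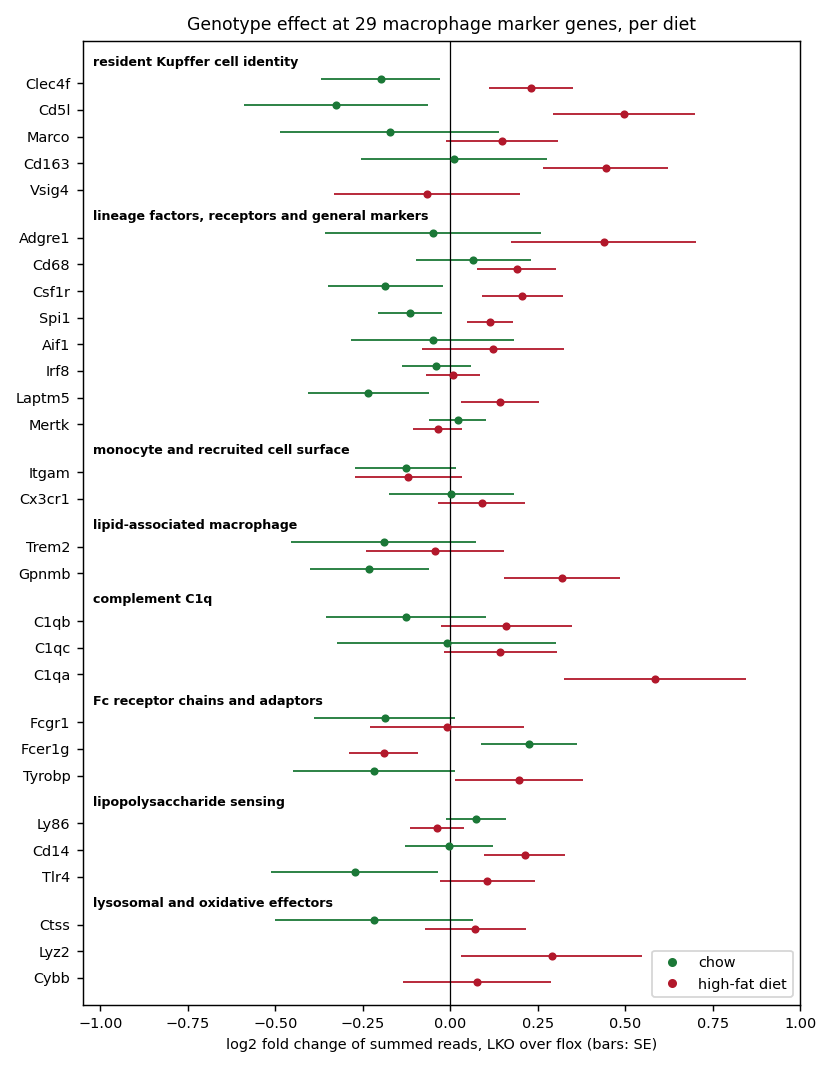
Log2 fold change of LKO over flox (x axis; bars are SE) for each marker gene with intervals, on chow (green, 3 livers per group) and on the high-fat diet (red, 4 per group), with genes ordered by role. On chow 19 of 25 points lie left of 0, and on the high-fat diet 22 of 29 lie right of it; no gene passed the test on either diet.

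The genes of resident Kupffer cell identity had the highest median of the larger groups on this diet, 0.23 over 5 genes, and 4 of the 5 were above 0. Cd163 encodes the scavenger receptor for haemoglobin bound to haptoglobin. Its 2 intervals summed to 8.32, 9.65, 15 and 10.6 CPM in flox livers 1 to 4 and to 13.4, 13.1, 18.2 and 14.4 CPM in LKO livers 1 to 4. The LKO livers lay above 3 of the flox livers, and flox 3 lay within their range. The means were 10.9 ± 2.87 and 14.8 ± 2.32 CPM (SD, n = 4). The log2 fold change was 0.44 (SE 0.18, edgeR adjusted p = 0.383). With single libraries left out it ran from 0.33 without LKO 3 to 0.63 without flox 3 (edgeR adjusted p = 0.066).

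Cd5l encodes a secreted scavenger protein of tissue macrophages, also called AIM. Its 2 intervals, of which 1 covers the start site shown above, summed to 4.61, 7.9, 9.55 and 6.68 CPM in flox livers and to 11.1, 9.27, 9.53 and 10.6 CPM in LKO livers. Flox 3 alone reached the LKO range. The log2 fold change was 0.50 (SE 0.20, edgeR adjusted p = 0.396).

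Clec4f encodes a lectin that in mice is made by Kupffer cells. Its 8 intervals, none inside the gene, summed to 41.8, 33.3, 52.1 and 41.8 CPM in flox livers and to 57.8, 42.7, 51.6 and 45.5 CPM in LKO livers. The groups overlapped through flox 3, and the log2 fold change was 0.23 (SE 0.12, edgeR adjusted p = 0.552). It was 0.13 without flox 2, 0.14 without LKO 1 and 0.35 without flox 3. The start-site interval (chr6:83655874-83656374) held 4.12 ± 1.23 CPM in flox and 5.6 ± 1.38 CPM in LKO livers (SD, n = 4). Of all member intervals, the lowest p belonged to 1 of Clec4f that lies 12.6 kb beyond the far end of the gene (chr6:83631688-83632188), singled out after its values were seen. It held 5.28, 4.68, 6.16 and 5.19 CPM in flox livers and 11.7, 7.61, 8.88 and 6.44 CPM in LKO livers, so every LKO value was above every flox value. Its log2 fold change was 0.71 (SE 0.21, edgeR adjusted p = 0.137). The neighbouring interval at chr6:83633958-83634458, the strongest of the gene, differed by -0.05 (SE 0.19).

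Marco, a scavenger receptor for bacteria, had a log2 fold change of 0.15 (SE 0.16) and Vsig4, the complement receptor of the immunoglobulin family, of -0.07 (SE 0.27). Summed over the 16 intervals of the group, resident Kupffer genes held 72.5, 66.6, 96.9 and 75 CPM in flox livers 1 to 4 and 99, 82.7, 101 and 88.8 CPM in LKO livers 1 to 4. Apart from flox 3, the flox livers were lower than every LKO liver. Flox 3 and LKO 3 also had the lowest summed hepatocyte markers, 3251 and 3182 CPM, against 4040 to 5807 CPM in the others. Whether the share of hepatocyte nuclei plays a part in the macrophage values was not tested.

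**Figure D2:**
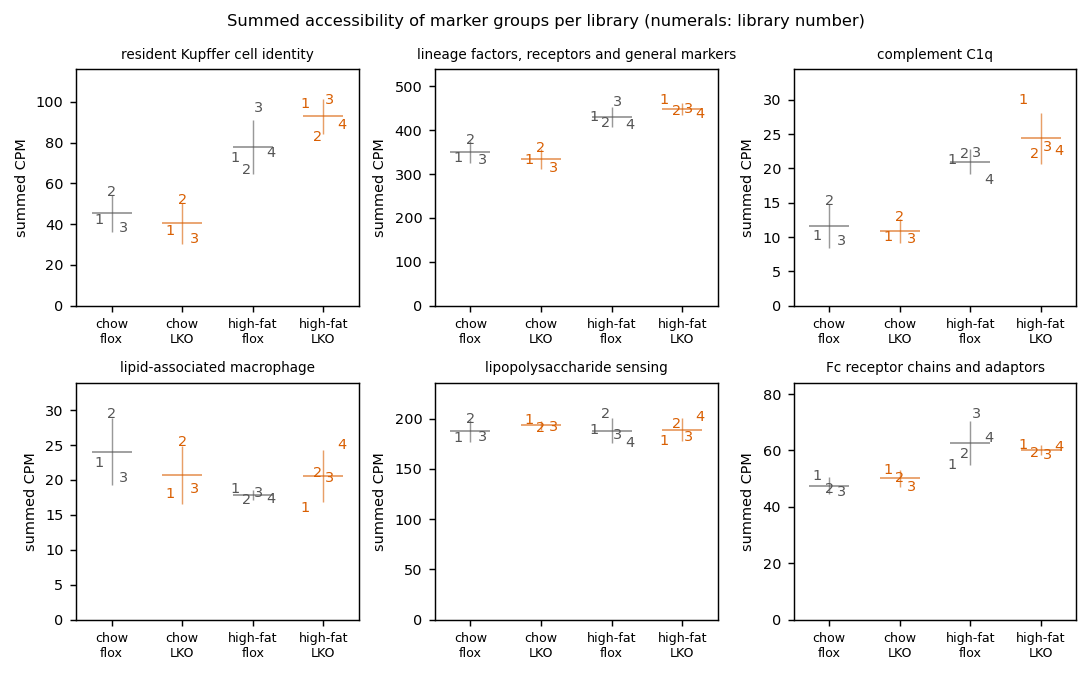
Summed CPM (y axis, from 0) of the intervals of 6 groups of marker genes in each library, with numerals for the library number and the mean ± SD as a cross; grey is flox and orange LKO, and chow and high-fat sums rest on different interval sets. On chow the libraries numbered 2 hold the highest resident Kupffer sums of both genotypes (55.6 and 51.8 CPM), and on the high-fat diet flox 3 (96.9 CPM) lies among the LKO livers.

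Among the lineage factors, receptors and general markers, 7 of 8 genes were above 0 on the high-fat diet, with a median of 0.13. Spi1 was the only member whose summed reads did not overlap between genotypes, as held for 5.11% of all genes (2.66% with LKO higher). Its 11 intervals summed to 106, 106, 108 and 99.1 CPM in flox livers and to 115, 110, 115 and 113 CPM in LKO livers. Every LKO liver was above every flox liver, by a small step: the log2 fold change was 0.11 (SE 0.07, edgeR adjusted p = 0.628). Within the gene, the intervals at chr2:91089006-91089506 and chr2:91096509-91097009 differed by 0.53 (SE 0.23) and 0.43 (SE 0.20), also without overlap, while the strongest differed by -0.05 (SE 0.12). In all, 6 of 122 member intervals did not overlap between genotypes, 5 with LKO higher and 1 lower, against 5.3% of all intervals (2.8% higher, 2.5% lower).

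Csf1r, the receptor for the growth factor CSF1, summed to 36.1, 33.2, 51 and 34.9 CPM in flox livers and to 45.6, 46.1, 45.4 and 41 CPM in LKO livers. Flox 3 was the highest of all 8, and the other flox livers were the lowest. The log2 fold change was 0.21 (SE 0.12, edgeR adjusted p = 0.602). With single libraries left out it ran from 0.14 without flox 2 to 0.36 without flox 3 (edgeR adjusted p = 0.0543). Adgre1, which encodes the macrophage antigen F4/80, had 1 weak interval 11.3 kb away, with 4.02 ± 1.46 CPM in flox and 5.36 ± 0.94 CPM in LKO livers (SD, n = 4; log2 fold change 0.44, SE 0.27). It was 0.27 without flox 2 and 0.69 without flox 3. Cd68, a lysosomal glycoprotein, differed by 0.19 (SE 0.11), Laptm5, a lysosomal membrane protein of blood cells, by 0.14 (SE 0.11), and Aif1, which encodes the actin-binding protein IBA1, by 0.12 (SE 0.20).

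Mertk and Irf8 stood near 0. Mertk summed to 147 to 160 CPM in flox and 141 to 160 CPM in LKO livers, a log2 fold change of -0.04 (SE 0.07), and its start interval held 34.4 ± 3.56 and 31.7 ± 2.93 CPM (SD, n = 4). The 2 member intervals lower in LKO at an unadjusted p under 0.05 were both within Mertk, at chr2:128699237-128699737 (-0.41, SE 0.16, edgeR adjusted p = 0.32) and chr2:128715817-128716317 (-0.59, SE 0.21, edgeR adjusted p = 0.235). Irf8, a factor of monocyte and dendritic cell development, differed by 0.01 (SE 0.08) over 11 intervals.

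All 3 complement C1q chains, which start the classical complement pathway and are made in the liver mainly by macrophages, were above 0, with a median of 0.16. C1qa had the largest fold change of any member and also one of the weakest intervals (chr4:136898707-136899207), with 21 to 56 reads per library. This interval came from a call in LKO livers. It held 2.59, 3.41, 3.77 and 2.42 CPM in flox livers and 6.01, 3.64, 4.05 and 4.55 CPM in LKO livers. The groups met at LKO 2 and flox 3, and the log2 fold change was 0.58 (SE 0.26, edgeR adjusted p = 0.454). C1qb differed by 0.16 (SE 0.19) and C1qc by 0.14 (SE 0.16), and without LKO 1 by 0.07 and 0.03. At both of their start sites LKO 1 was the highest library, with 9.12 and 9.66 CPM, where the other 3 LKO livers held 6.4 to 7.96 and 5.88 to 6.57 CPM.

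Of the lipid-associated pair, Gpnmb, a glycoprotein of lipid-laden macrophages, summed to 12.3, 11.8, 11.3 and 10.8 CPM in flox livers and to 10.4, 14.6, 14.4 and 18.6 CPM in LKO livers. LKO 1 was the lowest of all 8 and the other LKO livers the highest, and the log2 fold change was 0.32 (SE 0.17, edgeR adjusted p = 0.552), or 0.18 without LKO 4 and 0.45 without LKO 1. Trem2, a lipid receptor, held 6.28 ± 0.628 and 6.07 ± 0.417 CPM (SD, n = 4) in an interval 9.37 kb before the gene, a difference of -0.04 (SE 0.20). The genes of monocytes and recruited cells were near 0: Cx3cr1, the fractalkine receptor, differed by 0.09 (SE 0.12) and Itgam, which encodes CD11b, by -0.12 (SE 0.15). Itgam held the 1 member interval that lay lower in every LKO liver on this diet (chr7:128056874-128057374, -0.32, SE 0.20).

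Of the Fc receptor chains and adaptors, Fcer1g, the shared signalling chain of several Fc receptors, had the lowest value of all members on the high-fat diet. Its 5 intervals summed to 32.8, 40.4, 38.3 and 41.5 CPM in flox livers and to 36, 31.2, 32.5 and 34.3 CPM in LKO livers. Flox 1 lay among the LKO livers, and the log2 fold change was -0.19 (SE 0.10, edgeR adjusted p = 0.546). Tyrobp, the adaptor of TREM2, differed by 0.20 (SE 0.18), by 0.04 without flox 2 and by 0.48 without flox 3, which was the highest library (26.8 CPM, against 11.7 to 21.7 CPM in the rest). Fcgr1, the high-affinity receptor for immunoglobulin G, differed by -0.01 (SE 0.22).

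Of the lipopolysaccharide sensors, Cd14, which passes lipopolysaccharide to the receptor, summed to 20.6, 20.6, 25.3 and 18.8 CPM in flox livers and to 23.3, 25.5, 23.6 and 26.1 CPM in LKO livers. Flox 3 again lay in the LKO range, and the log2 fold change was 0.21 (SE 0.12, edgeR adjusted p = 0.588). Tlr4, the receptor itself, differed by 0.11 (SE 0.14) and Ly86, encoding the MD-1 partner of a related receptor, by -0.04 (SE 0.08). The lysosomal and oxidative effectors had values above 0 and did not pass. Lyz2 (lysozyme) differed by 0.29 (SE 0.26), and by 0.16 without flox 2 and 0.56 without flox 3. Ctss (cathepsin S) differed by 0.07 (SE 0.14) and Cybb (the NADPH oxidase subunit) by 0.08 (SE 0.21).

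Leaving out LKO 1 and flox 3 together, an alternative chosen after the data were seen and on a component that itself follows genotype, gave 1 member call (1 of 122, against 1.78% of all intervals). This was an interval 7.04 kb before Cd163 (chr6:124297344-124297844), which came from a call in LKO livers. It held 1.57, 2.05, 3.14 and 2.07 CPM in flox livers and 2.15, 4.41, 5.48 and 4.67 CPM in LKO livers. LKO 1 sat with the flox livers, and with all livers the log2 fold change was 0.91 (SE 0.33, edgeR adjusted p = 0.266). Without the 2 libraries it was 1.35 (SE 0.34, edgeR adjusted p = 0.0362), and member intervals at an unadjusted p under 0.05 numbered 13 higher and 3 lower, against 7.09% and 6.76% of all.

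On chow the marker genes leaned the other way, and again none passed. LKO was lower for 19 of 25 genes, the median log2 fold change was -0.13 against 0.01 over all 15932 genes, of which 53.2% were above 0, and 29 of 84 intervals were above 0, with a median of -0.10 against 0.00 over all (-0.0032). The edgeR test called 0 of the 25 genes, as it called 0% of all genes, with 0 members and 6.26% of all genes at an unadjusted p under 0.05 (3.89% with LKO higher, 2.38% lower). It called 0 of the 84 intervals, against 0.0227% of all (0.00113% higher, 0.0215% lower). With the library number as a block, the calls over all features grew to 126 intervals and 10 genes, and those of members stayed at 0. At an unadjusted p under 0.05 stood 1 member interval, against 6.77% of all. The groups did not overlap in 3 intervals, 2 with LKO higher and 1 lower, against 11.7% of all (5.63% higher, 6.04% lower). Among genes the number was 0, against 11% of all (6.01% with LKO higher, 4.98% lower).

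Resident Kupffer genes were below 0 for 3 of 4 on chow. Cd5l held 3.76, 6.15 and 4.35 CPM in flox and 3.64, 4.64 and 3.09 CPM in LKO livers 1 to 3, in 1 interval (chr3:87369093-87369593) that is not among its high-fat intervals. The values overlapped, and the log2 fold change of -0.33 (SE 0.26) was the lowest of any member on chow. Clec4f summed to 25.7, 34.3 and 23.8 CPM in flox and 23.1, 29.5 and 20.6 CPM in LKO livers, a log2 fold change of -0.20 (SE 0.17). In both genotypes library 2 was the highest. Marco differed by -0.17 (SE 0.31) and Cd163 by 0.01 (SE 0.27), the latter turning to -0.18 without the libraries numbered 2.

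The lineage genes were below 0 for 6 of 8 on chow. Csf1r summed to 33.3, 46.8 and 33.8 CPM in flox and 32.3, 40.1 and 27.9 CPM in LKO livers, again highest in library 2 of each genotype (log2 fold change -0.19, SE 0.16). Spi1 summed to 74, 80 and 70.5 CPM and to 66.8, 74.6 and 65.9 CPM (-0.11, SE 0.09). Laptm5 differed by -0.23 (SE 0.17), Adgre1 by -0.05 (SE 0.31), Aif1 by -0.05 (SE 0.23) and Irf8 by -0.04 (SE 0.10). Cd68 differed by 0.07 (SE 0.16). Mertk, with 132 ± 2.78 and 134 ± 3.79 CPM (SD, n = 3), differed by 0.02 (SE 0.08). In other groups, Tlr4 differed by -0.27 (SE 0.24), Gpnmb by -0.23 (SE 0.17), Tyrobp by -0.22 (SE 0.23) and Ctss by -0.22 (SE 0.28). Trem2 and Fcgr1 both differed by -0.19 (SE 0.26 and 0.20), and C1qb and Itgam by -0.13 (SE 0.23 and 0.14). C1qc differed by -0.01 (SE 0.31), Cd14 by 0.00 (-0.0048, SE 0.13), Cx3cr1 by 0.00 (0.0028, SE 0.18) and Ly86 by 0.07 (SE 0.09).

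Fcer1g had the highest value of the 6 genes above 0 on chow. It summed to 33.7, 24.5 and 29 CPM in flox and 38, 29.8 and 34.2 CPM in LKO livers. The groups overlapped, and the log2 fold change was 0.22 (SE 0.14, edgeR adjusted p = 0.73). Its interval at the far end of the gene (chr1:171229189-171229689) was the 1 member interval at an unadjusted p under 0.05, with 5.05, 2.45 and 2.76 CPM against 6.04, 4.83 and 6.42 CPM (0.75, SE 0.29, edgeR adjusted p = 0.68).

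Within chow libraries of the same number, LKO was lower in all 3 pairs for 11 of 25 genes, against 20.7% of all genes, and higher in all 3 for 1, Fcer1g, against 25.2%. These pairs were inferred from the counts and not from the labels, and LKO 1 correlated more with flox 3 (0.279) than with flox 1 (0.191). The 11 were Cd5l, Clec4f, Csf1r, Fcgr1, Gpnmb, Itgam, Laptm5, Spi1, Tlr4, Trem2 and Tyrobp. The resident Kupffer sum was lower in each pair as well, with 41.8, 55.6 and 38.3 CPM in flox and 36.6, 51.8 and 32.6 CPM in LKO livers 1 to 3. The same libraries stood out across the members. On chow, library 2 was the highest of the 3 flox livers at 22 of 25 genes and the highest of the 3 LKO livers at 20 of 25, where over all genes these shares were 43.2% and 37.8%. In the high-fat table, flox 3 was the highest of the 4 flox livers at 21 of 29 genes, against 33.3% of all genes. LKO 1 was the highest of the 4 LKO livers at 14 of 29, against 27.5% of all genes. The median on chow moved with single libraries. Without flox 2, 13 of the 25 genes were below 0 and their median was 0.00 (-0.0037), and without LKO 3 it was again 13 of 25, with -0.01 (-0.0093). The median over the 84 intervals turned to 0.02 without flox 2 (47 above 0) and to 0.00 without LKO 3 (0.0046, 43 above 0). Without LKO 2, 21 of 25 genes were below 0 with a median of -0.24, and without flox 3 the values were 21 of 25 and -0.25. Without LKO 1 the gene median was -0.07, and without both libraries numbered 2, 16 of 25 genes were below 0, with -0.12. High-fat values were above 0 for 20 to 24 of 29 genes with any 1 library left out, and the median ran from 0.09 without flox 2 to 0.19 without flox 3. Without LKO 1 and flox 3 together it was 0.22, with 25 of 29 above 0.

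The difference between the genotype effects of the diets was tested on intervals found in both tables (at least 50% overlap), which kept 79 member intervals of 23 genes. Read depth differed between the tables, and only the high-fat animals are known to have been fasted. Diet cannot be told apart from these here. High-fat effect minus chow effect was above 0 for 19 of the 23, with a median of 0.23 against 0.00 over all 15258 genes (0.0042). No member passed (0 of 23, where 0.0524% of all genes did). At an unadjusted p under 0.05 there were 3 members with a higher high-fat effect, against 3.38% of all genes, and 1 with a lower, against 3.22%. The 3 were Gpnmb (0.58, 95% interval 0.10 to 1.06), Clec4f (0.51, 0.07 to 0.96) and Spi1 (0.23, 0.02 to 0.44), and the 1 was Fcer1g (-0.37, -0.70 to -0.03). Their edgeR adjusted p lay between 0.684 and 0.742. Csf1r (0.41, -0.01 to 0.82) and Laptm5 (0.40, 0.00 to 0.81, the lower bound being -0.0021) came next. Intervals spanned 0 for the other 19, Csf1r and Laptm5 included, and were as wide as -0.81 to 0.84 for Marco. Intervals this wide show neither a difference nor its absence. The median was 0.10 without chow flox 2 (15 of 23 above 0), 0.12 without chow LKO 3 (15 of 23) and 0.38 without chow LKO 2 (20 of 23), and lay between these with any other library left out.

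**Figure D3:**
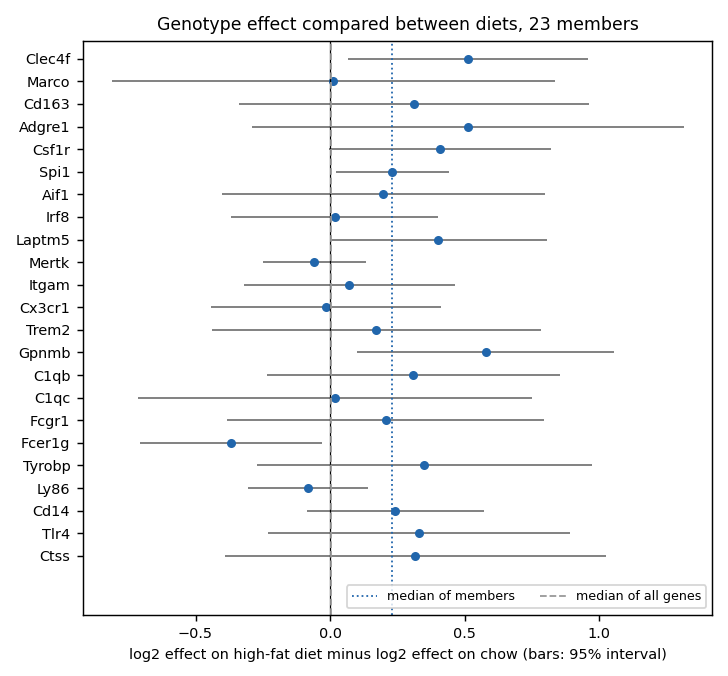
High-fat genotype effect minus chow genotype effect on the log2 scale (x axis), with 95% intervals from the SE, for the 23 members with matched intervals. Points lie right of 0 for 19 genes, and the interval leaves 0 out for Gpnmb, Clec4f, Spi1 and, on the other side, Fcer1g.

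The genotype in which the authors called an interval bears on its fold change. Over all intervals the median was 0.13 for those from LKO calls and -0.15 for those from flox calls on chow, and 0.13 and -0.13 on the high-fat diet. Member intervals came from LKO calls for 36 of 84 (42.9%) in the chow table and 74 of 122 (60.7%) in the high-fat table, against 49.9% and 49.5% of all. With high-fat feeding the members from LKO calls had a median of 0.24 (62 of 74 above 0) and those from flox calls -0.05 (17 of 48), each above the median of all intervals from the same calls. On chow the medians were 0.02 (22 of 36) and -0.18 (7 of 48), each below. Split by place on the high-fat diet, the median was 0.16 inside the gene, 0.11 outside but within 10 kb, and 0.02 beyond. On chow it was -0.12, -0.05 and -0.02.

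**Figure D4:**
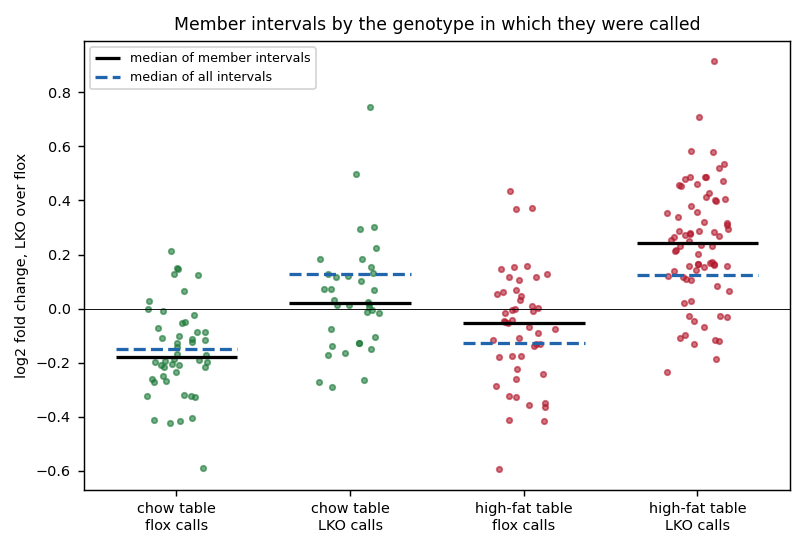
Log2 fold change of LKO over flox (y axis) for each member interval, split by diet table and by the genotype in which it was called; black lines are medians of members and dashed blue lines medians of all intervals from the same calls. On the high-fat diet the member medians (0.24 and -0.05) lie above those of all intervals (0.13 and -0.13), and on chow (0.02 and -0.18) below (0.13 and -0.15).

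Markers of other liver cells gave the setting. In high-fat livers the summed level of the 33 macrophage genes differed by 0.07 on the log2 scale (869 ± 51.9 CPM in flox, 910 ± 13.8 in LKO; SD, n = 4), and the resident Kupffer group by 0.26. Without Ly86 and Mertk, which hold many of the intervals, the members differed by 0.12 on this diet and by -0.09 on chow. The hepatocyte list differed by -0.22 (4618 ± 1111 and 3978 ± 550 CPM), with ranges of 3251 to 5807 and 3182 to 4356 CPM. Of its 10 genes 7 were below 0, and 2 passed the test as lower in LKO, against 0.203% of all genes. Among these was Alb (albumin; -0.64, edgeR adjusted p = 0.0463). Of its 374 intervals 147 were above 0. The test called 35 of them lower and 1 higher, against 0.303% and 0.448% of all intervals, and 19 of the 35 belonged to Alb. Sinusoidal endothelium differed by 0.00 (0.0045), stellate cells by 0.08, neutrophils by 0.07, dendritic cells by -0.03, T, B and NK cells by -0.05 and biliary cells by -0.04. On chow the members differed by -0.04, hepatocytes by -0.24, neutrophils by -0.32 (50 ± 7.28 and 40 ± 7.03 CPM; SD, n = 3), endothelium by -0.11, and the other lists by -0.02 to 0.04. The 2 genotypes overlapped for every list on both diets. Among defining markers with no interval at all in either table were Krt19, Krt7 and Cftr of biliary cells, Cd3g, Cd8a and Ms4a1 of lymphocytes, Cxcr2 and Mpo of neutrophils, Dcn of stellate cells and Xcr1 of dendritic cells. What part other cells have in the macrophage values was not tested.

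**Figure D5:**
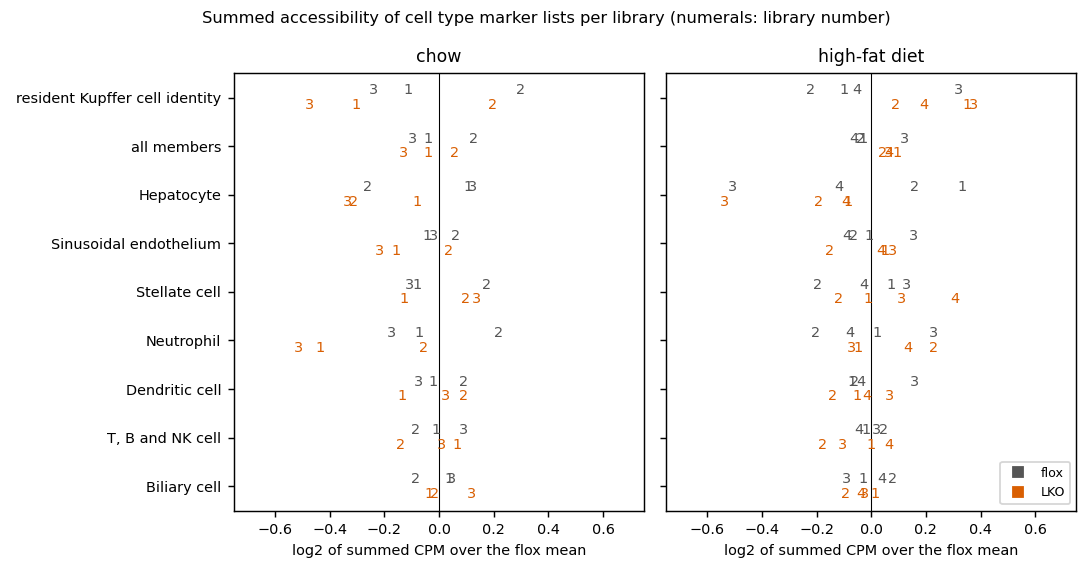
Summed CPM of each cell type list in each library, as log2 over the flox mean of the same diet (x axis); numerals are library numbers, grey flox and orange LKO. Flox 3 on the high-fat diet sits at the top of the flox libraries for the resident Kupffer list and at the bottom for the hepatocyte list, and the genotypes overlap in every row.

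Further macrophage lists, none of whose genes is a member, held no gene whose summed reads passed on either diet. In the chow and high-fat tables in turn, lipid-associated genes had medians of 0.03 and 0.14, antigen presentation 0.07 and 0.15, and inflammatory cytokines and chemokines -0.19 and 0.06. Macrophage transcription regulators had -0.06 and 0.00 (0.0042), other Kupffer genes -0.06 and 0.07, and niche and growth factor ligands -0.01 and -0.03. Single intervals passed in Fabp5, a fatty acid binding protein, on chow (chr3:10014333-10014833, -2.59, SE 0.32, edgeR adjusted p = 0.041) and in Lgals3, which encodes galectin-3, 21.4 kb from the gene on the high-fat diet (chr14:47352175-47352675, 1.68, SE 0.31, edgeR adjusted p = 0.00511). C6, a complement gene in the list of Kupffer genes, had the lowest p among these on the high-fat diet, with 13.1 to 15.5 CPM in flox and 18.3 to 22.7 CPM in LKO livers. Its groups did not overlap, and its log2 fold change was 0.57 (SE 0.13, edgeR adjusted p = 0.0506). On chow the lowest p among these belonged to Fabp5 (-0.56, SE 0.11, edgeR adjusted p = 0.623) and Cd36 (0.33, SE 0.10, edgeR adjusted p = 0.73).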

How the data were processed

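ATAC-seq reads per interval were used for 14 livers. The authors deposited raw counts in 1 table per diet, on mm10 per the labels, for intervals named by the genotype of their call; the submitters' processing notes name, without roles, Bowtie2 2.4.2, Trim Galore 0.6.7, DESeq2 4.2.0, bedtools, MACS2 2.2.7.1, ChIPseeker 4.1.1 and HOMER 4.11. Handling of duplicates, mitochondrial reads and the transposase offset, and any pooling of calls, are not stated in these sources. High-fat columns match single labels. Chow columns are headed LKO or flox with a number, where the chow labels number the libraries as KO and WT, so the columns stand for their group only. Intervals were assigned with the bounds of 21900 protein-coding RefSeq genes (GRCm38.p6).

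Each table was fitted whole with edgeR 4.0.16 in R 4.3.3 (TMM, filterByExpr, quasi-likelihood test, Benjamini-Hochberg adjustment over all intervals or all genes, called under 0.05). Reads were summed over the intervals of a gene. CPM are scaled by TMM, errors of fold changes are SE, and 95% intervals are normal intervals from the SE. The effects of the diets were compared in 1 fit of the 14 libraries over matched intervals. Fits were tested on simulated data. Alternatives used DESeq2 1.42.0, limma-voom (limma 3.58.1), other scalings and filters, intervals within 10 kb, at least 90% overlap, each library left out, and the library number as a block. Same-numbered chow libraries deviated from their group means together (correlations of 0.191, 0.535 and 0.193 across intervals). By the rule used (above 0.1 in every pair) their numbers were treated as pairs, from the data and not the labels. LKO 1 with flox 3 (0.279) and LKO 3 with flox 1 (0.179) also exceeded 0.1. The rule therefore does not tell pairs 1 and 3 apart. High-fat numbers were not treated as pairs (-0.012 to 0.178). No pair within a group was as alike as repeat counts of 1 library would be (chi-square per degree of freedom at least 2.49). Titles number the females singly, so a library is read as 1 animal.

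The members and gene lists were chosen with earlier results of these data known. Every member is named, each by its summed reads, its strongest interval or any called interval, and of further lists the genes with a call and the 2 of lowest p per diet are named, apart from 1 that is not reported here; other intervals singled out were chosen after their values were seen. No set test was run. Signal tracks were not used.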

Additional observations from a re-analysis of the deposited data

Results flagged for a closer look

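In each diet and genotype with 4 livers, the highest and lowest library of every member gene were tested against the rest of their group (58 groups, all on the high-fat diet). Chance alone flags about 1 in 20 such groups, and 3 stood out. Csf1r in flox livers was highest in library 3, with 51 CPM against 33.2 to 36.1 CPM in the other 3. Csf1r in LKO livers was lowest in library 4, with 41 CPM (41.04) against 45.4 to 46.1 CPM. Laptm5 in LKO livers was highest in library 3, with 31.2 CPM against 28.7 to 29 CPM.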

How the results depend on the processing

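No member gene passed in any of the alternatives computed for its summed reads; the lowest edgeR adjusted p was 0.0526, for Cd163 on the high-fat diet without LKO 1 and flox 3. Member calls among intervals stayed at 0 in every alternative other than that one, which gave 1. Calls over all features varied more. On chow, against 20 intervals and 0 genes, DESeq2 called 544 intervals and 36 genes, limma-voom 13 intervals, and the fit without both libraries numbered 2 called 333 intervals and 36 genes. On the high-fat diet, against 795 intervals and 71 genes, limma-voom called 511 intervals, DESeq2 124 genes, and the fit without LKO 1 and flox 3 (chosen after seeing the data) 1883 intervals and 411 genes. For the difference between diets, against 8 genes, DESeq2 called 32, and the fit without both chow libraries numbered 2, LKO 1 and flox 3 called 115. The cause was not tested. With single libraries left out these counts ran from 0 to 604 chow intervals, 304 to 1189 high-fat intervals, 0 to 30 chow genes, 21 to 235 high-fat genes and 4 to 33 genes for the difference.

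With the replicate number as a block, chow gave 126 intervals and 10 genes, the high-fat diet 1420 and 312, and the difference between diets 118 genes, with 0 members in each. On both diets not every library correlated best with its own number. The block changed no other call of a member.

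Signs of small effects depended on the setting. On chow, Adgre1 turned to 0.04 (0.0411) with limma-voom, 0.01 (0.0079) with the block and 0.17 without the libraries numbered 2. C1qb turned to 0.03 without these (0.0307), and C1qc to 0.04 (0.0422), 0.02 (0.0244) and 0.03 (0.0338) in the same 3 settings. Cd163 turned to -0.08 (-0.0796) with limma-voom, -0.03 (-0.0285) with the block, -0.18 without the libraries numbered 2 and 0.00 (-0.0018) by library totals. Cx3cr1 turned to -0.01 with DESeq2 (-0.0117) and -0.02 by library totals (-0.0152). Cd14 turned to 0.01 (0.0086), 0.00 (0.0035) and 0.03 (0.0339) with limma-voom, the block and without the libraries numbered 2, and to 0.05 (0.0454) with intervals within 10 kb only. That limit also turned Irf8 to 0.03 (0.0252) and Ly86 to -0.59. On the high-fat diet, leaving out LKO 1 and flox 3 turned Vsig4 to 0.18, Trem2 to 0.04 (0.0401) and Fcgr1 to 0.22.

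With single libraries left out, chow values crossed 0 for Adgre1 (-0.31 to 0.27), Aif1 (-0.24 to 0.12), C1qb (-0.29 to 0.10), C1qc (-0.28 to 0.24), Cd14 (-0.11 to 0.08, the upper being 0.0763), Cd163 (-0.31 to 0.20), Cx3cr1 (-0.14 to 0.16), Irf8 (-0.13 to 0.02, the upper being 0.0213), Marco (-0.56 to 0.02, the upper being 0.0164), Mertk (0.00 to 0.04, or -0.002 to 0.0386) and Trem2 (-0.46 to 0.02, the upper being 0.0185). High-fat values crossed 0 for Ctss (0.00 to 0.20, the lower being -0.0019), Cybb (-0.21 to 0.24), Fcgr1 (-0.12 to 0.17), Irf8 (-0.04 to 0.05, or -0.0399 to 0.0456), Ly86 (-0.08 to 0.03, or -0.0755 to 0.0268) and Vsig4 (-0.29 to 0.14). The chow median over member intervals ran from -0.22 to 0.02 and the high-fat median from 0.10 to 0.17. Of the cell type lists, only T, B and NK cells on chow (0.44) and biliary cells on the high-fat diet (-0.11) moved beyond the spread between libraries, both with intervals within 10 kb only. Depth limits weak genes most: C1qa, Lyz2, Adgre1, Trem2 and Vsig4 had 58 reads or fewer per high-fat library.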
